A study of Caenorhabditis elegans with 2 samples.

Results

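The cytosolic ribosomal protein genes of Caenorhabditis elegans were examined for promoter regions recovered with the tagged B0310.2 protein in early embryos. The set held every protein-coding gene whose name starts with rpl, rps or rla followed by a number, which gave 81 of 19973 annotated protein-coding genes. Of these, 50 are named for the large subunit (47 rpl genes and the 3 rla genes of the ribosomal stalk) and 31 for the small subunit. Each gene was given the strongest region whose summit (the point of highest signal) fell inside its promoter window, which reached 1000 bp upstream and 300 bp downstream of each annotated 5' end. The rank of that region in its list (1 is the strongest) and its offset from the 5' end are the measurements.

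The data were chromatin immunoprecipitation and sequencing (ChIP-seq) maps from 2 samples of a single group, labelled biological replicates 1 and 2. Both came from whole early embryos of strain OP642, of mixed sex, taken 0 h after bleaching of gravid worms to release the eggs. The strain carries the unc-119(tm4063) mutation on chromosome III and the transgene wgIs642, which adds a C-terminal GFP-FLAG tag to B0310.2, and the precipitation used an antibody to GFP. A control alignment entered the deposited region lists, but no untagged strain, other stage or other condition was set beside these samples, so a tagged-protein signal cannot be told apart from signal that any GFP precipitation would give. Each replicate had a list of 30000 regions, as did the pool of both. The 642 regions that the authors retained as reproducible were the 642 strongest of the pooled list and are called top regions here.

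Ribosomal proteins surround the ribosomal RNA in the 2 subunits of the ribosome. The small subunit decodes the messenger RNA, and the large subunit joins amino acids and carries the exit tunnel and the stalk that recruits translation factors. The proteins are needed in matched amounts and their genes are strongly transcribed in growing cells, and in yeast and animals their promoters are known for shared sequence elements. In worm embryos the early divisions run largely on ribosomes supplied by the mother.

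The sequences under the strongest summits are shown first, because several of these promoters shared short sequence words. Each line gives 101 bases centred on the pooled summit, read from the RefSeq sequence of assembly WBcel235 (ce11) and printed 5' to 3' on the strand of the gene. Capitals mark words of 6 bases on either strand. They are the GC-rich words AGCGCG, with its overlapping relative GCGCGC, and AGAGCG. The other capitals mark the words GAGTGT and, in the same windows, TACGGT. These 5 windows held both GAGTGT (or its reverse complement ACACTC) and TACGGT (or ACCGTA).
rpl-3 (III:3867511-3867611, plus strand): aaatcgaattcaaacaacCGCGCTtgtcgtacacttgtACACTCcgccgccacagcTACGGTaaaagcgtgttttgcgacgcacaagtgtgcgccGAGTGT
rpl-15 (IV:654865-654965, minus strand): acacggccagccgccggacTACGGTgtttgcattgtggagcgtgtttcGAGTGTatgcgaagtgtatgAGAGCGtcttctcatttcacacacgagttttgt
rpl-20 (IV:4750000-4750100, minus strand): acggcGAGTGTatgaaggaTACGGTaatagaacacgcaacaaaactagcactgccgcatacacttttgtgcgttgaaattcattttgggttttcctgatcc
rps-23 (IV:12391247-12391347, minus strand): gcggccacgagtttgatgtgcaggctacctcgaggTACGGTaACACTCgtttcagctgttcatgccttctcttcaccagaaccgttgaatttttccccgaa
rps-1 (III:4475634-4475734, plus strand): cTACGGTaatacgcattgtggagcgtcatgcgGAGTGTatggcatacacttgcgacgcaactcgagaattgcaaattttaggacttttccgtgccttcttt
The 2 words began 18 bp apart at rpl-3, 29 bp at rpl-15, 14 bp at rpl-20, 7 bp at rps-23 and 31 bp at rps-1. None of these windows overlapped an untranslated part of an annotated transcript, and all 5 summits lay between genes.

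The next 3 windows belong to other top regions and held AGCGCG, a word taken from earlier results on the whole set of top regions.
rps-11 (IV:11602058-11602158, plus strand): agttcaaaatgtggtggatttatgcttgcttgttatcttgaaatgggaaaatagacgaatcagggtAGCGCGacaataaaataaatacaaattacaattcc
rpl-7A (IV:4390611-4390711, minus strand): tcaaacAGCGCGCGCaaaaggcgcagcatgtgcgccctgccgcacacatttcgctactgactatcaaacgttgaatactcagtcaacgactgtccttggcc
rps-12 (III:5679065-5679165, plus strand): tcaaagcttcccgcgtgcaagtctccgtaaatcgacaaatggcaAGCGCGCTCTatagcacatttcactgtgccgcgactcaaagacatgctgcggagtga
At rps-12 the word ran on into AGAGCG on the other strand, and at rpl-7A into GCGCGC. The windows of rps-28 and rpl-35 held neither GAGTGT nor TACGGT.

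Of the 81 ribosomal protein genes, 13 (16%) had a top region in the pooled list at the promoter, against 1.85% of all protein-coding genes. They were rpl-3, rpl-7A, rpl-15, rpl-20, rpl-24.2 and rpl-35 of the large subunit (6 of 50, 12%), and rps-1, rps-11, rps-12, rps-19, rps-23, rps-26 and rps-28 of the small subunit (7 of 31, 22.6%). The 13 genes had 13 different regions. In the list of replicate 1, the 642 strongest regions reached 8 members, 4 of each subunit, against 1.51% of all genes. In replicate 2 they reached 12 members, 6 of each subunit, against 1.91%. Both replicates reached 7 members (4 large and 3 small) against 1.11% of all genes, and at least 1 replicate reached 13 members against 2.32%. No p is given, because the set was proposed with these results known and genes are not replicates.

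The strongest member was rpl-3, which encodes a large subunit protein that reaches toward the peptidyl transferase centre. Its region ranked 38 in the pooled list, 49 in replicate 1 and 35 in replicate 2, with a pooled signal of 442 against a median of 53.9 over that list. Both replicates placed it among their strongest regions, with summits 279 and 298 bp upstream of the 5' end.

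Like rpl-3, another 6 members kept a top rank in each replicate, and of these the small subunit supplied rps-11, rps-26 and rps-28. The region of rps-11 ranked 133 in the pooled list, 172 in replicate 1 and 138 in replicate 2. That of rps-26, whose protein lies near the messenger RNA exit channel, ranked 154, 151 and 178 in the same order. The rps-28 region ranked 255, 130 and 389, so it stood higher in replicate 1, whereas rps-11 differed little between the replicates. At rps-26 the summit lay within 200 bp of the snoRNA gene F39B2.14 and 52 bp upstream of tmem-107, nearer than to rps-26 itself (405 bp).

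Among the genes named for the large subunit, the region of rpl-15 ranked 216 in the pooled list, 316 in replicate 1 and 222 in replicate 2. The rpl-24.2 region ranked 268, 428 and 257. RefSeq describes its product as a putative ribosome biogenesis protein related to yeast Rlp24, so this member by name may be no part of the mature ribosome. Its summit lay in an intron of the overlapping gene C03D6.1. The rpl-35 region, upstream of a gene for a protein at the exit of the peptide tunnel, ranked 311, 421 and 296. All 3 were lower in replicate 1 than in replicate 2 by a factor of 1.67 or less. Without rpl-24.2 and rpl-42, whose RefSeq product names are not those of ribosomal proteins, 12 of 79 members (15.2%) and 5 of 48 large subunit genes (10.4%) had a top region.

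The other 6 top members passed rank 642 in the pooled list but not in replicate 1. The region of rpl-20 ranked 316 in the pooled list, 999 in replicate 1 and 289 in replicate 2. That of rpl-7A ranked 522, 1619 and 534. The region of rps-19, a gene whose human counterpart is mutated in Diamond-Blackfan anaemia, ranked 526, 1822 and 522. In each of these 3 the pooled rank followed replicate 2.

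The region of rps-23, which encodes a protein of the decoding centre, ranked 548 in the pooled list, 1227 in replicate 1 and 671 in replicate 2. That of rps-1 ranked 612, 3625 and 712, so neither gene was in the 642 strongest of either replicate alone. The region of rps-12 ranked 549 in the pooled list and 383 in replicate 2 but 13854 in replicate 1, a 36.2-fold difference in rank. Of the replicates, replicate 2 alone placed rps-12 among its 642 strongest regions, and the summits in the replicates were 42 bp apart.

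**Figure D1:**
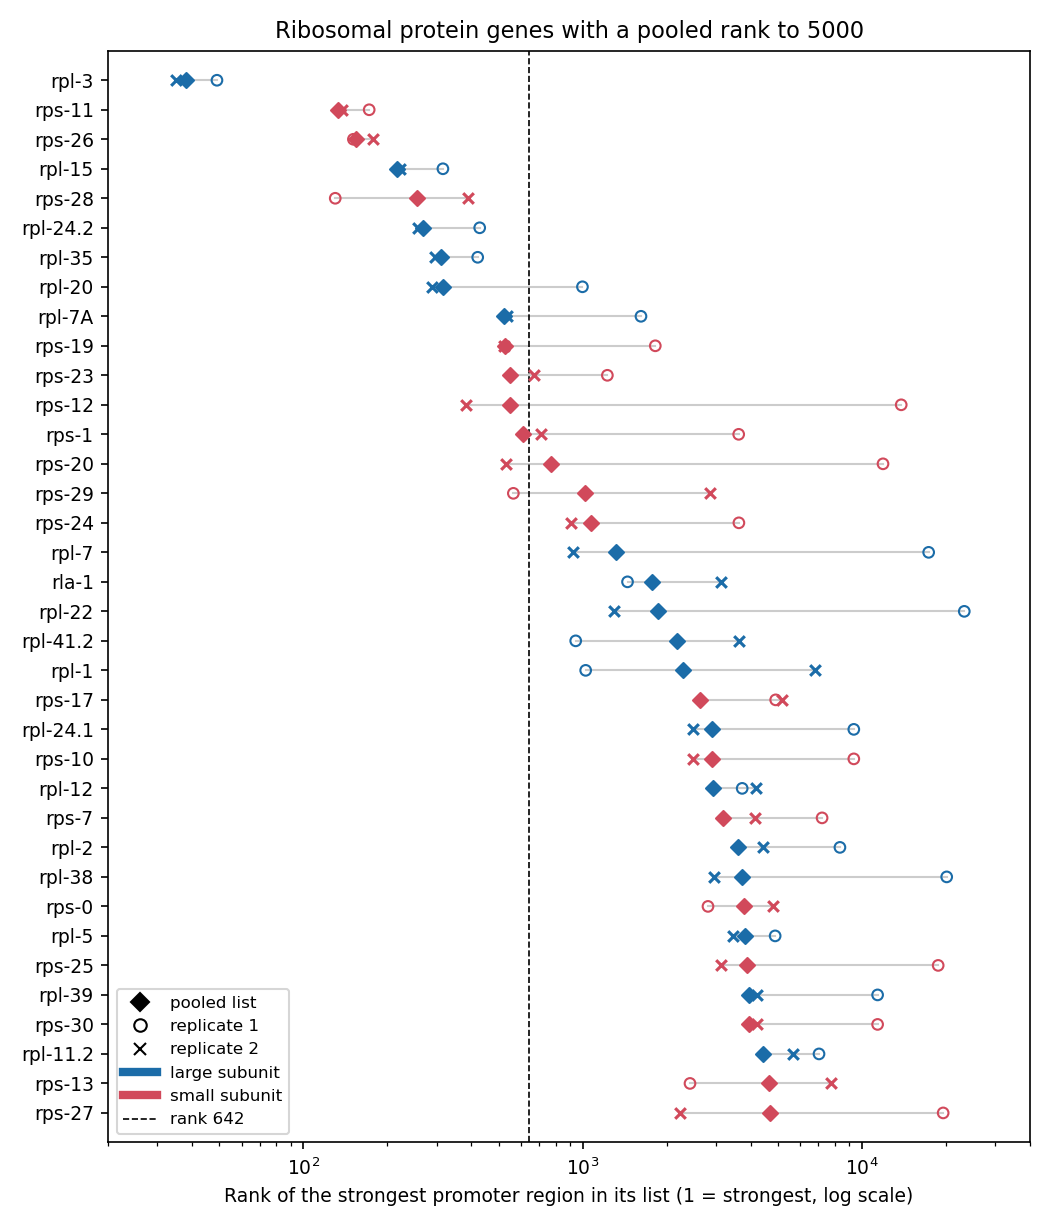
Rank of the strongest promoter region (log scale, 1 is the strongest) for the 36 ribosomal protein genes with a pooled rank up to 5000, in the pooled list (diamonds), replicate 1 (circles) and replicate 2 (crosses), with the large subunit in blue and the small subunit in red. The genes from rpl-3 to rpl-35 stay left of rank 642 (dashed) in all lists, and most circles below them lie to the right of the crosses.

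The threshold fell in a gap among the members. The last inside was rps-1 (rank 612, signal 142) and the first outside was rps-20 (rank 771, signal 131), on either side of a signal of 139.6 at rank 642. The rps-20 region ranked 11922 in replicate 1 and 533 in replicate 2. Below it came rps-29, with ranks of 1019 in the pooled list, 565 in replicate 1 and 2864 in replicate 2, the only member that was a top region in replicate 1 and not in the pooled list. The rps-24 region ranked 1068, 3631 and 906 in the same order. That of rpl-7 ranked 1313, 17374 and 921, with replicate summits 592 bp apart, so the strongest regions of the 2 replicates lay at different places. The rla-1 region, at a stalk protein gene, ranked 1769, 1449 and 3142 and lay 789 bp upstream, beside the snoRNA gene Y37E3.21 and nearer to Y37E3.8 (163 bp).

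At a wider limit the members stayed above the background. By rank 5000, 36 of 81 members (44.4%) had a pooled promoter region, against 10.1% of all protein-coding genes. The share was 36% of large subunit genes (18 of 50) and 58.1% of small subunit genes (18 of 31). Replicate 1 gave 23 members (28.4%) against 9.12%, and replicate 2 gave 37 (45.7%) against 10.4%. In replicate 1 the subunits supplied 12 large and 11 small genes, and in replicate 2 they supplied 19 and 18.

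Over the whole pooled list 67 members (82.7%) had a promoter region, against 38.3% of all genes. Replicate 1 had 59 members, against 37.9% of all genes, and replicate 2 had 63, against 38.4%. A region in all 3 lists was found for 51 members (63%) against 23.6% of all genes. The median pooled rank was 13074.5 for large subunit genes and 3943 for small subunit genes, with a gene without a region counted as past the end of the list. The order of the subunits was the same in replicate 1 (16732.5 and 8235) and in replicate 2 (9653.5 and 4214). No test of the difference between subunits was made, since genes of a subunit are not replicates of a condition. The median over all protein-coding genes lay past the end of every list.

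**Figure D2:**
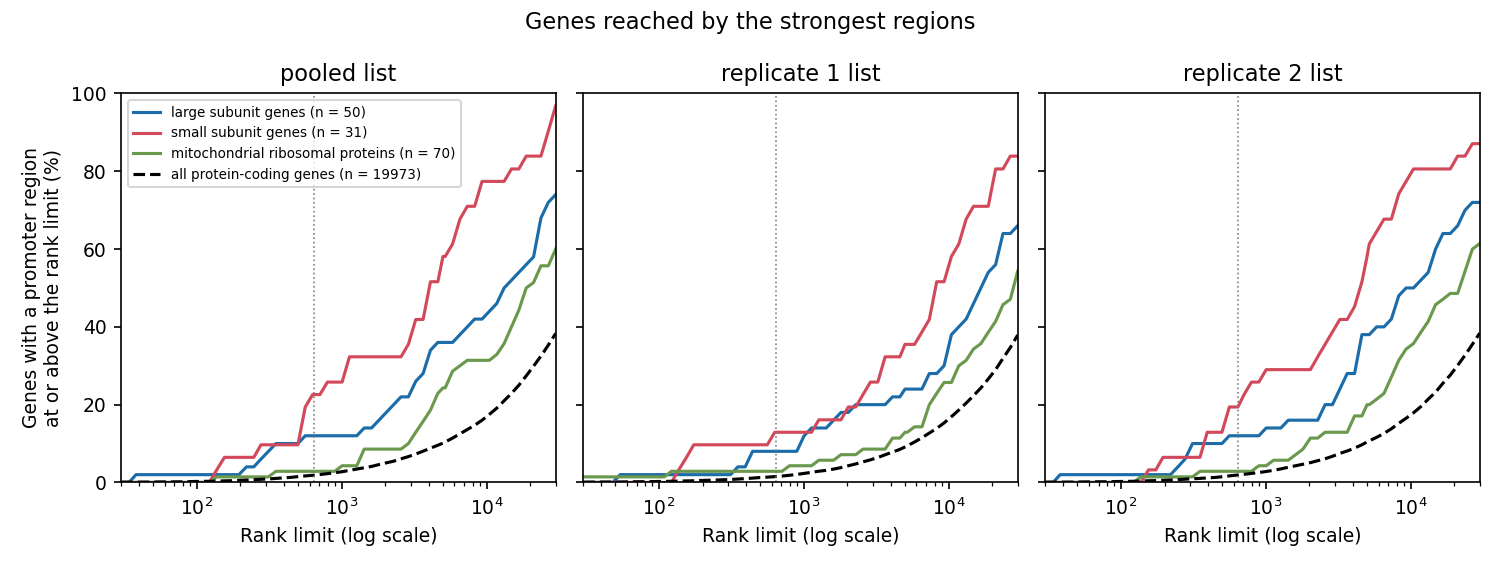
Share of genes (vertical axis, %) with a promoter region at or above each rank limit (horizontal axis, log scale) in the pooled list and in each replicate, for large subunit genes (50), small subunit genes (31), mitochondrial ribosomal protein genes (70) and all protein-coding genes (19973). In the pooled list at rank 5000 the small subunit line stands at 58.1%, the large subunit line at 36%, the mitochondrial line at 24.3% and the line of all genes at 10.1%.

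Members without a region were mostly of the large subunit. Of the 81 members, 9 had no promoter region in any of the 3 lists, against 47.1% of all protein-coding genes. They were rpl-10, rpl-11.1, rpl-18, rpl-25.2, rpl-27, rpl-37, rpl-42 and rla-2 of the large subunit, and rps-21 alone of the small subunit. Another 5 large subunit genes had a region in 1 replicate and none in the pool: rpl-21, rpl-26 and rpl-29 in replicate 2, and rpl-4 and rpl-33 in replicate 1. The weakest pooled regions that remained were the one shared by rpl-36 and rps-14 (rank 27526), and those of rps-9 (27422), rps-5 (26495) and rpl-19 (25195). None of these 5 genes had a region in replicate 1, so none of them had a region in both samples.

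Members whose names share a number differed in rank. The gene rpl-24.2 had the top region described above, and rpl-24.1, annotated by RefSeq as the large subunit protein itself, ranked 2918 in the pooled list, 9370 in replicate 1 and 2492 in replicate 2. Of rpl-11.1 and rpl-11.2, whose protein binds the smallest ribosomal RNA of the large subunit in yeast and human cells, rpl-11.2 ranked 4434, 7032 and 5667, and rpl-11.1 had no region. Of the next such genes, rpl-25.1 ranked 21468 in the pooled list and 15870 in replicate 2 with none in replicate 1, and rpl-25.2 had no region. Both rpl-41 genes had regions in every list: rpl-41.2 ranked 2178, 945 and 3636, and rpl-41.1 ranked 6660, 10361 and 4330. The region of rpl-36.A ranked 11983, 22698 and 8469, and that of rpl-36 ranked 27526 in the pooled list; RefSeq annotates these as different proteins, so they share a name only. How reads that align to several places were treated is not given in the sources used here, so values at near-identical copies are uncertain.

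Of the 51 members with a region in all 3 lists, 35 (68.6%) ranked lower in replicate 1 than in replicate 2, against 53.9% of all such genes. Among the 13 top members, 11 (84.6%) were lower in replicate 1, against 62.9% of all genes with a top region. Among the 23 members next in rank up to 5000 the share was 65.2%, against 63.8% of all genes in that range. Past rank 5000 it was 60% (9 of the 15 members with a region in both replicates), against 47.4% of all such genes. The differences that were largest in fold were at rps-12 (36.2), rps-20 (22.4), rpl-7 (18.9), rpl-22 (18.0) and rps-27 (8.73), in each case with replicate 1 lower. The rpl-22 region ranked 1868 in the pooled list, 23307 in replicate 1 and 1296 in replicate 2, and that of rps-27 ranked 4700, 19582 and 2243. The lists hold no read counts, so whether depth moved with this was not tested.

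**Figure D3:**
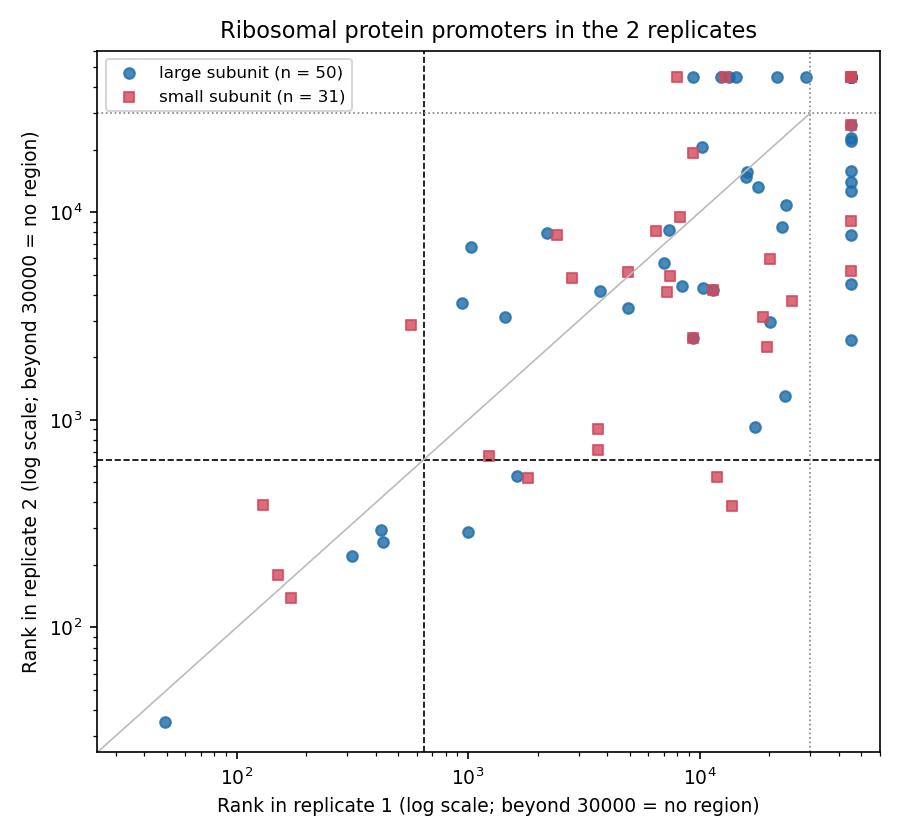
Rank of each member's strongest promoter region in replicate 1 (horizontal, log scale) and replicate 2 (vertical, log scale), with large subunit genes as circles and small subunit genes as squares, the dashed lines at rank 642, and points past the dotted lines at 30000 for genes with no region in that list. The 7 members at lower left were top in both replicates, and rps-12 and rps-20 are the squares farthest right below the horizontal dashed line.

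The top regions of the members lay upstream of the genes. All 13 summits were upstream, from 71 bp at rpl-7A to 533 bp at rps-11 with a median of 293 bp, and 12 of the 13 lay between 100 and 600 bp upstream. Among all 370 protein-coding genes with a top promoter region, 88.9% of summits were upstream, with a median of 272 bp, and 56.2% lay in the same band. The members' summits were between genes in 12 of 13 cases (92.3%), against 73% of all genes with a top region. The summits of the replicates were at most 74 bp apart in all 13, with a median of 13 bp, and 84.8% of all genes with a top region had replicate summits within 100 bp.

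Lower in the list the summits were more widely spread. Of the 23 members ranked below the top and up to 5000, 20 summits (87%) were upstream, against 77% of all genes in that range. Replicate summits were within 100 bp at 13 (56.5%), the same share as among all genes in that range (56.5%). Of the 15 members ranked past 5000 with a region in both replicates, 0 had summits within 100 bp, against 34.2% of all such genes. Summits in the gene's own coding exon were found at 0 of 13 top members, against 4.32% of all genes with a top region. They were found at 8 of the 67 members with any region (11.9%), against 15.9% of all genes with one. A single member, 1 of the 13 with a top region (7.69%), had a small RNA gene 200 bp or less from its summit, against 20.8% of all genes with a top promoter region.

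**Figure D4:**
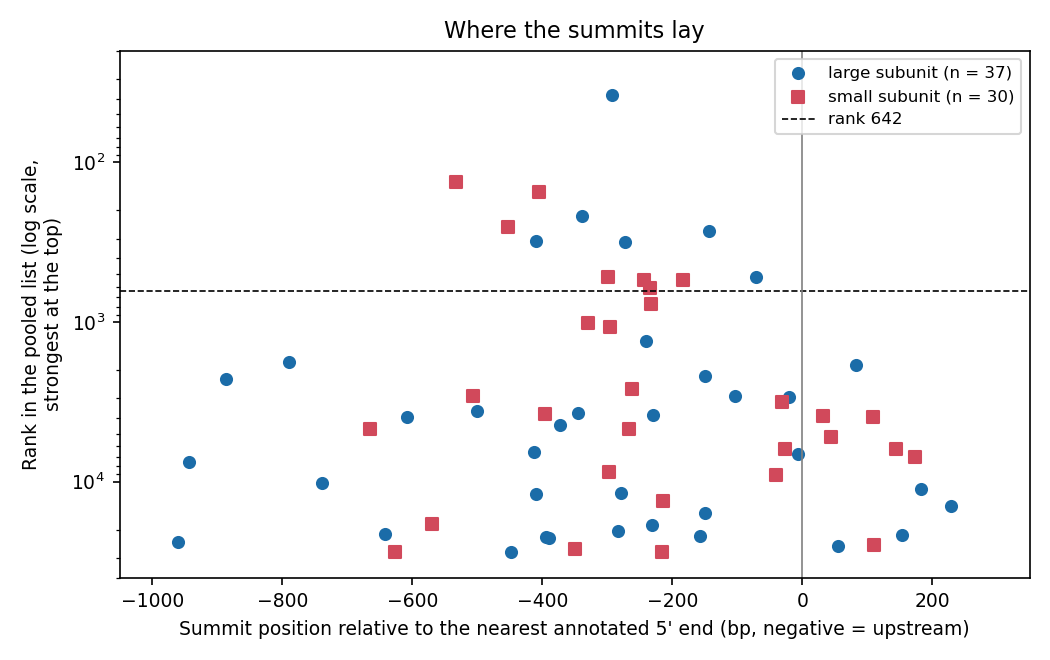
Position of the pooled summit relative to the nearest annotated 5' end (horizontal axis, bp, negative is upstream) against the rank of the region in the pooled list (vertical axis, log scale, strongest at the top) for the 37 large (circles) and 30 small (squares) subunit genes with a region. Points above the dashed line at rank 642 lie between 71 and 533 bp upstream, and points below it spread over the whole promoter window.

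Many members have a promoter window that overlaps the window of another gene. At 9 of the 13 top members (69.2%) the summit also lay in the promoter window of another protein-coding gene, against 45.1% of all 370 genes with a top region. At 4 of the 13 the other gene's 5' end was nearer, against 23.5% of those 370 genes. These 4 were rps-26 beside tmem-107, rpl-20 beside Y17G9B.5 (190 bp against 272 bp), rps-19 beside hsr-9 (146 bp against 299 bp) and rps-12 beside ska-3 (110 bp against 183 bp). At rpl-15, rpl-7A, rps-23 and rps-1 the ribosomal protein gene was the nearer one, beside K11H12.8, set-21, dpm-3 and ifet-1. It was also nearer at rps-28, where Y41D4B.4 lay on the same strand with its 5' end beyond the 3' end of rps-28. The window of Y41D4B.4 thus reached across the whole of rps-28. A region in the windows of 2 genes cannot be assigned to 1 of them from these lists. The nearest upstream neighbour was on the opposite strand within 1000 bp for 8 of the 13 top members (61.5%), 32 of 54 members with a lower region and 8 of 14 with none. Over all protein-coding genes the share was 17.5%, and over those with a top region 35.7%. It was on the same strand within 500 bp for 0 of 13, 8 of 54 and 1 of 14 members, against 18% of all genes and 13.2% of those with a top region.

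Lower in the list, another 17 of the 23 members ranked below the top and up to 5000 shared their summit with another promoter (73.9%, against 30.6% of all genes in that range). Those beside a non-member were rps-20 (ekl-4), rps-29 (snt-2), rpl-7 (rab-11.1), rla-1 (Y37E3.8 and phb-1), rpl-22 (ify-1), rpl-1 (Y71F9AL.9), rpl-12 (lin-54), rpl-2 (calf-1), rps-0 (rbg-3), rpl-5 (col-38), rps-25 (inx-7), rps-13 (nfx-1) and rps-27 (picd-1). In 3 cases a single region served 2 members. They were rpl-24.1 with rps-10 at rank 2918, rpl-39 with rps-30 at rank 3943 (also beside C26F1.3), and rpl-36 with rps-14 at rank 27526, so each pair joined a large and a small subunit gene. Each such pair counts as 2 genes and 1 region in the shares given here. At 10 of the 23 members up to rank 5000 the other gene's 5' end was nearer, against 15.9% of all genes in that range. Past rank 5000 the other gene was nearer at 9 of the 31 members, against 12%. In that lower range 20 of the 31 members shared their summit (64.5%, against 23.9%). The other genes there were sna-3 (with rps-3), usp-3 (rps-6), M04F3.5 (rpl-41.1), F36A2.9 (rps-15), polh-1 (rps-22), Y48B6A.1 (rpl-43), sac-2 (rpl-31), nuo-1 (rpl-36.A), M01F1.8 (rpl-16) and aps-3 (rpl-17). Further down they were sec-61.A (rps-18), swp-1 (rpl-23), lpd-7 (rpl-9), pab-1 (rpl-30), ppm-1.H (rpl-34), R11D1.10 (rpl-28), Y43B11AR.3 (rps-4), lsm-1 and F40F8.1 (rps-9), and ndab-2 (rpl-36 and rps-14).

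The members with top regions came from 3 of the 6 chromosomes, with 6 of 18 members on IV, 4 of 18 on III and 3 of the 25 on I. Over all protein-coding genes the shares were 1.74% on IV (57 of 3281), 3.03% on III (80 of 2640) and 2.22% on I (64 of 2878). None of the 10 members on II, the 8 on V or the 2 on X had a top region. The shares of all genes there were 1.8% (62 of 3449), 1% (50 of 4994) and 2.09% (57 of 2731), and these 3 chromosomes hold 20 members in all.

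Top regions were also counted in related gene lists, beside the 1.85% of all genes. Of the 70 genes for mitochondrial ribosomal proteins, 2 (2.86%) had a top region, mrpl-23 (rank 126, beside the small RNA gene T08B2.13) and mrpl-15 (rank 321). Their median pooled rank was 19809, against 6660 for the cytosolic set, and the medians were 27846.5 and 12374 in replicate 1 and 22363.5 and 5946 in replicate 2. Of the 16 ribosome biogenesis genes, 1 (6.25%) had a top region. This was fib-1, which encodes the nucleolar methyltransferase fibrillarin, at rank 482 in the pooled list, 1270 in replicate 1 and 466 in replicate 2. It is also the nearest upstream neighbour of the member rps-16, 110 bp away on the same strand. The rps-16 region itself ranked 7044 in the pooled list. The order of the biogenesis and cytosolic lists changed with the list used. The biogenesis median was 11887 in the pooled list and 12850.5 in replicate 2, weaker than the cytosolic set, and 9493 in replicate 1, stronger than it. By rank 5000 in replicate 1, 31.2% of biogenesis genes and 28.4% of cytosolic genes had a region, and 68.8% and 63% had one in all 3 lists. None of the 5 RNA polymerase I genes had one, the nearest being rpac-19 at 1623. The ubiquitin fusion genes ubl-1 (rank 18272) and ubq-2 (rank 4222), which also encode ribosomal proteins but fall outside the naming rule, and the ribosome-associated rack-1 (no pooled region) had none.

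The top windows were richer in G and C than the other member windows. The 13 top windows of 101 bp were 50.3% ± 6.29 G and C (SD over windows, n = 13 windows), against 38.6% ± 10.3 in the 21 next windows up to rank 5000 and 40.5% ± 10.0 in the 30 lower ones. The 270 top promoter windows of other protein-coding genes were at 48.4% ± 9.15, and the 30000 windows of the pooled list were at 40.4% ± 8.96. The difference was narrow in extent. With 100 bp to each side of the summit the top member windows were at 42.2% ± 4.66, against 37.9% and 39.5% in the other 2 member classes, and they were below the 45.7% ± 7.62 of the other top promoter windows.

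Of 7 words searched on either strand, some of them taken from earlier results of these data, AGCGCG was in 5 of the 13 top member windows (38.5%) and AGAGCG in 3 (23.1%), against 2.17% and 3.01% of all 30000 windows. GCGCGC and the GC box word GGGCGG were each in 2 (15.4%), against 1.63% and 3.13%. CGAACC and the TATA box word TATAAA were in 0 of 13, against 2.51% and 7.7%, and the splice acceptor word TTTCAG was in 1 (7.69%) against 17.1%. For TTTCAG the direction turned with the width of the window, since with 100 bp to each side of the summit it was in 7 of 13 (53.8%) against 31.8% of all windows and 16.7% of other genes' top promoter windows. With that width AGCGCG was in 7 of 13 (53.8%) against 3.93% of all windows and 16.7% of other genes' top promoter windows. In the 270 narrower top promoter windows of other genes AGCGCG was in 26, AGAGCG in 30 and GCGCGC in 38, so GC-rich words were not confined to the members.

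Over all 2080 words of 6 bases, 8 were in at least 5 of the 13 windows, and the commonest was GAGTGT with 7 windows (53.8%). It was in 5 of the 51 lower member windows (9.8%), in 25 of the 270 top promoter windows of other genes (9.26%) and in 3.82% of all windows. TACGGT was in 5 of the 13 (38.5%), in 15.7% of the lower member windows, in 4.81% of the other top promoter windows and in 3.11% of all windows. These 2 words were picked after the windows had been seen, and words that overlap GAGTGT, such as CGAGTG, are among the 8. Both were present together in 5 of the 13 windows, the 5 that are printed first above. No other window among the 642 top regions held both, and 32 of all 30000 windows did (0.107%), of which 8 belonged to members.

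The 3 member windows outside the top regions that held both words are printed here with the same capitals. They were picked because they hold both words, and the order and spacing of the words varied among the member windows.
rpl-38 (V:15511771-15511871, plus strand): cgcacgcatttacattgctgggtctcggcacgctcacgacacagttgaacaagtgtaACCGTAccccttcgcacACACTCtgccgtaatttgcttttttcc
rpl-11.2 (X:2242941-2243041, minus strand): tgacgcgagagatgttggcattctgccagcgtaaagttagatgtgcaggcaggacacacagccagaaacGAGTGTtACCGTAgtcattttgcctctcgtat
rpl-34 (IV:12268556-12268656, plus strand): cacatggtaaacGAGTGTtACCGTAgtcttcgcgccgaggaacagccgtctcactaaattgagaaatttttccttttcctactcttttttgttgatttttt
The rpl-38 region ranked 3717 in the pooled list, the rpl-11.2 region 4434 and the rpl-34 region 22535. At rpl-11.2 and rpl-34, as at rps-23, the words began 7 bp apart and read GAGTGT, 1 base, ACCGTA on 1 strand. Outside the members, the highest ranked window that held both words and lay at a promoter was shared by eef-1A.1, a gene for the elongation factor that brings aminoacyl-tRNA to the ribosome, and rfc-4 (rank 1497).

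The word pair was then looked for in the promoters themselves, whether or not a region lay there. In the 500 bp upstream of the outermost 5' end, 20 of the 81 members (24.7%) held both words inside 101 bp, against 241 of 19973 protein-coding genes (1.21%). The share was 28% of large subunit genes (14) and 19.4% of small subunit genes (6), and 2.86% of the mitochondrial ribosomal protein genes (2 of 70). Among the 68 members without a top region, whose windows were not used to pick the words, 15 held the pair (22.1%). Among the 357 other genes with a top promoter region, which include those that share a promoter with a member, 9 did (2.52%). With 1000 bp upstream the members' count was 21 (25.9%) against 1.94% of all genes.

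The stricter arrangement of GAGTGT, 1 base and ACCGTA, on either strand, was noticed in the windows of rps-23, rpl-11.2 and rpl-34 and then counted in all promoters. It was upstream of 13 members (16%), these 3 included, and of 41 of all protein-coding genes (0.205%). Without the 3 genes it was at 10 of 78 members (12.8%). It was at 8 large subunit genes (rpl-1, rpl-6, rpl-11.2, rpl-21, rpl-22, rpl-24.1, rpl-29 and rpl-34) and 5 small subunit genes (rps-7, rps-10, rps-13, rps-23 and rps-29), and at 0 of the 70 mitochondrial ribosomal protein genes. Its centre lay 170 bp upstream at rps-13 to 487 bp at rps-29, and it read in the direction of the gene in 10 of the 13. The 13 members held 12 distinct sites, because rpl-24.1 and rps-10 have the same site between them and each counts here. Of the 28 other genes with a match, 7 shared the very site with a member across a common promoter.

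Most members with the pair upstream had no top region. Of the 20, 5 had one, and these are the genes of the 5 windows on which the words were noticed, so their number says nothing about a link between the pair and the rank. The stricter arrangement was at 1 of 13 members with a top region (7.69%) and at 12 of 68 without one (17.6%). The former is rps-23 and the latter include rpl-11.2 and rpl-34, the genes on whose windows it was noticed. That split therefore says nothing about a link with rank. Any pooled region was found at 17 of the 20 members with the pair and at 50 of the 61 without it. Of the 11 members with the stricter arrangement and a pooled region, the summit lay within 100 bp of it in 4. The nearest was rps-23 (9 bp), followed by rpl-11.2 (25 bp), rpl-34 (32 bp) and rps-13 (97 bp). Since the arrangement was noticed in the summit windows of rps-23, rpl-11.2 and rpl-34, their nearness was fixed in advance. Among the other members, rps-13 alone had its summit within 100 bp. At rpl-1, rpl-6 and rpl-22 the summit was 671, 579 and 306 bp away. A match is a run of letters and was not tested as a binding site of B0310.2 or of any other factor.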

How the data were processed

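Per the deposited file descriptions, the authors made each region list from ChIP-seq alignments with a control, in builds ce11 and ce10, and the ce11 lists were used. The aligner, peak caller, their versions and the treatment of multiply aligned reads were not given in the sources used here. The authors' signal value per region has no stated scale, so it ranked regions within a list only, and no signal was compared between lists. Without read counts in these lists, sequencing depth is unknown and intervals are not given.

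Summits were placed against Ensembl release 115 gene models with Python 3.11.15 and NumPy 2.4.6. All regions lay within the chromosome lengths of WBcel235. Sequences came from the RefSeq genome of that assembly. A gene took its strongest region in each list, and regions can serve several genes. Coordinates are 1-based. The placement was tested on simulated regions.

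The members and lists were chosen with earlier results of these data known, so counts stand beside the same counts over all genes, without p-values. Named members were those with a top pooled region, the 5 next, the 5 with the largest fold between replicate ranks, the 5 weakest, those with no region in any list (14 had none in the pooled list), and gene pairs that share a number; other names are genes of the fixed lists with a top region and genes sharing a member's region. Further genes, such as those with the word pair, were named after their values were seen. Nothing shows beyond the labels that the replicates were separate cultures. Windows, thresholds and the assignment of shared promoters were varied.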

Additional observations from a re-analysis of the deposited data

How the results depend on the processing

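With 9 results recomputed in 64 alternatives, 52 stayed within the spread of the replicates or within 1.5 times the count, and 12 did not. For medians the spread was the SD of the 2 replicate values. Those values are also the alternatives without 1 replicate, so for these the limit is not independent and widens as the replicates differ. Taking only the protein-coding gene with the nearest 5' end gave 9 top members, 4 of them small subunit genes, median ranks of 26530.5 for large and 13222 for small subunit genes, and a median summit offset of -157 bp against -272 bp. It removed rps-26, rpl-20, rps-19 and rps-12. The share over all protein-coding genes is not given for that setting, so the 9 members have no background beside them. With only the 321 strongest regions, 8 members were counted, 5 large and 3 small subunit genes, and in both replicates 4 members. By rank 312 of the pooled list, just short of that limit, 8% of large and 9.68% of small subunit genes had a region, against 0.896% of all genes. By rank 351, just past it, the shares were 10% and 9.68%, against 1.03% of all genes. The order of the subunits among the strongest regions thus depended on the limit. A window of 500 bp upstream to 100 bp downstream put the large subunit median at 23417.5. Leaving out 1 replicate gave 8 to 12 top members, 4 to 6 small subunit genes, large subunit medians of 9653.5 to 16732.5, small subunit medians of 4214 to 8235 and median offsets of -329 to -266 bp. The lower counts and worse ranks were those without replicate 2. The large subunit median was below the small subunit median in strength under each of these settings. No paired analysis was possible because there was a single group. Leaving out rpl-24.2 and rpl-42, an alternative chosen after seeing the data, gave 12 top members and 5 large subunit genes and moved neither past these limits. The unknown depth limits how far a missing region can be read.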

Other observations

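The tagged gene and the marker gene of the strain were also looked up. The strongest region overlapping B0310.2 ranked 1013 in the pooled list, 1228 in replicate 1 and 992 in replicate 2, and that overlapping unc-119 ranked 5022, 3680 and 7584. Among the mitochondrial ribosomal protein genes, mrps-28 had a region at rank 20 in replicate 1, at 14738 in the pooled list and none in replicate 2.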
